A study of Mus musculus with 48 samples.

Results

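The 34 genes described here encode the transporters, enzymes and regulators of glycolysis and gluconeogenesis in mouse liver. They were listed by symbol for their place in the pathway, by a rule that holds no measured value but was set with earlier results of these data known, and all 34 were found among the 20622 genes of the cytoplasmic RNA data and among the 16269 coding sequences of the ribosome profiling data. Ribosome-protected fragments (RPFs) are the pieces of mRNA shielded by ribosomes from nuclease, and translation efficiency (TE) is the level of RPFs relative to that of RNA. The comparisons ask how activated β-catenin and MYC, alone and together, altered the translation of these genes in the liver.

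All 24 mice, males by their sample labels, were 2 to 4 months old on a mixed C57BL/6 background with free access to standard diet. The paper describes induction in both sexes, with some experiments restricted to males. All mice, controls included, had received AAV8.TBG.Cre, a virus in which the hepatocyte-specific TBG promoter drives Cre. WT mice carried neither conditional allele, B mice carried Ctnnb1ex3/+ (a β-catenin allele that Cre makes resistant to degradation), M mice carried R26-LSL-MYC (a MYC transgene that Cre switches on), and BM mice carried Ctnnb1ex3/+; R26-LSL-MYC. Livers were taken 4 or 10 days after the virus, with 3 mice per genotype and day and an RPF and an RNA library from each mouse, 48 libraries in all. Pieces of whole liver were used, so that hepatocytes with and without recombination and the other liver cells were measured together.

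RPF libraries held 9742197 to 14380713 counts (median 12503695) and RNA libraries 3254141 to 6540116 (median 5077217). Glul, the glutamine synthetase gene and a β-catenin target, had 507 to 860 RPF CPM (counts scaled to the library's total with TMM factors) in WT mice and 1625 to 5199 in B and BM mice. Myc had 43.7 to 164 RPF CPM in M and BM mice and 2.42 to 35.4 in WT and B mice, and these counts may hold reads of the transgene as well as of the mouse gene. Myc RNA did not separate the genotypes, at 19.7 to 54.2 CPM in M and BM mice and 22.5 to 48.6 in WT and B mice. All 7 hepatocyte markers were detected in every group, but their summed RPF level was 58899 to 69268 CPM in BM against 114945 to 129892 in WT at day 4, and 38245 to 52189 against 111444 to 138303 at day 10. In bulk tissue, fewer cells of a type and less RNA per cell cannot be told apart. The library labelled BM mouse 1 at day 10 stood apart from the other two of its group, with Lgr5 (a β-catenin target) at 116 against 46 and 29.9 RPF CPM and Myc at 58.1 against 121 and 164, and counts of calls that changed without it are given beside the results. It was singled out from these same data, so adjusted p-values of fits without it are not separate tests. For Axin2, another β-catenin target, it had 26.8 RPF CPM, against 23.7 to 28.5 in BM at day 4. The other BM mice of day 10 had 10.5 and 6.18, and which mice departed from the group was not tested.

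Glycolysis splits glucose into pyruvate, which lactate dehydrogenase can turn into lactate or which can enter mitochondria through pyruvate dehydrogenase. Gluconeogenesis runs the path in reverse and bypasses the irreversible steps with pyruvate carboxylase, phosphoenolpyruvate carboxykinase, fructose bisphosphatase and glucose-6-phosphatase. The adult liver is the main gluconeogenic organ, uses liver isoenzymes such as L-type pyruvate kinase, and raises or lowers many of these genes with fasting and feeding.

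RNA levels of the genes in TPM, which also correct for transcript length, covered a wide range in WT liver at day 4. Gapdh was highest at 803 ± 41.3 TPM (SD, n = 3), followed by Pck1 at 726 ± 147, Ldha at 639 ± 82.2, Fbp1 at 448 ± 36.4 and G6pc1 at 370 ± 77.9. Neighbours in this order overlapped within their spread for Gapdh and Pck1, Pck1 and Ldha, and Fbp1 and G6pc1, whereas Gapdh and Ldha did not overlap. Genes of the gluconeogenic route thus took 3 of the 5 highest places. Isoenzymes typical of other tissues ranged from Aldoa at 148 ± 21.3 TPM and Pkm at 116 ± 24.5, above Pklr at 66.3 ± 12.7, to low levels, with Ldhb at 4.54 ± 0.774 TPM, Aldoc at 2.21 ± 0.171, Hk2 at 0.74 ± 0.125 and Pfkfb4 at 0.283 ± 0.124. This order is of RNA, and RPFs gave another. In the same WT livers, Pklr had 385 ± 40.6 RPF CPM and Pkm 32 ± 3.03. Gapdh had 306 ± 14.3 RPF CPM, against 3396 ± 783 for Pck1 and 1335 ± 199 for Ldha. RPF CPM do not correct for length.

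The RPF level of 31 of the 34 genes differed from WT in at least 1 of the 6 comparisons (edgeR quasi-likelihood test, Benjamini-Hochberg adjusted p under 0.1 over all genes tested), and that of Hk1, Pfkp and Pfkfb4 in none. Of the 11775 genes tested in RPFs, 75.9% differed in at least 1 of them. At day 4, BM had 6 genes higher and 15 lower of 34, where 26.2% of all tested genes were higher and 24.7% lower. At day 10, BM had 12 higher and 5 lower of 33 tested, against 24.5% higher and 22.3% lower in all genes. The median log2 change of the members in BM moved from -0.26 at day 4 to 0.25 at day 10, while that of all genes was -0.00 and 0.03. Lower calls outnumbered higher ones in BM at day 4, and higher calls outnumbered lower ones at day 10. Without BM mouse 1 of day 10, 16 were higher and 7 lower: the 17 calls remained, and Pck1, G6pc1, Pgk1 (0.36, adjusted p = 0.0288), Tpi1 (0.28, adjusted p = 0.0822), Pdk1 (-0.53, adjusted p = 0.0446) and Fbp1 were added. For RPF fits with a mouse left out or with all mice of a day, the share of all genes called is not given here. Changes in such counts are therefore not read as results about the members. In TE, leaving out this mouse moved the share of all genes from 0.259% to 21.5%.

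The single alleles changed fewer genes. B had 4 higher and 5 lower of 34 at day 4 (all genes: 6.21% and 6.26%) and 6 higher and 8 lower of 34 at day 10 (13.1% and 12.1%). M had 9 higher and 5 lower of 34 at day 4 (18.5% and 14.7%) and 3 higher and 5 lower of 33 at day 10 (10.6% and 8.80%). The medians lay between -0.17 and -0.02 in these 4 comparisons. The 9 calls of B at day 4 fell to 4 without WT mouse 1 or without B mouse 2, the 14 calls at day 10 fell to 9 without B mouse 2, and the 8 calls of M at day 10 fell to 5, 5 and 4 without WT mouse 3, M mouse 1 and M mouse 2. With all mice of day 10 in 1 fit, B had 9 calls and M 4.

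**Figure D1:**
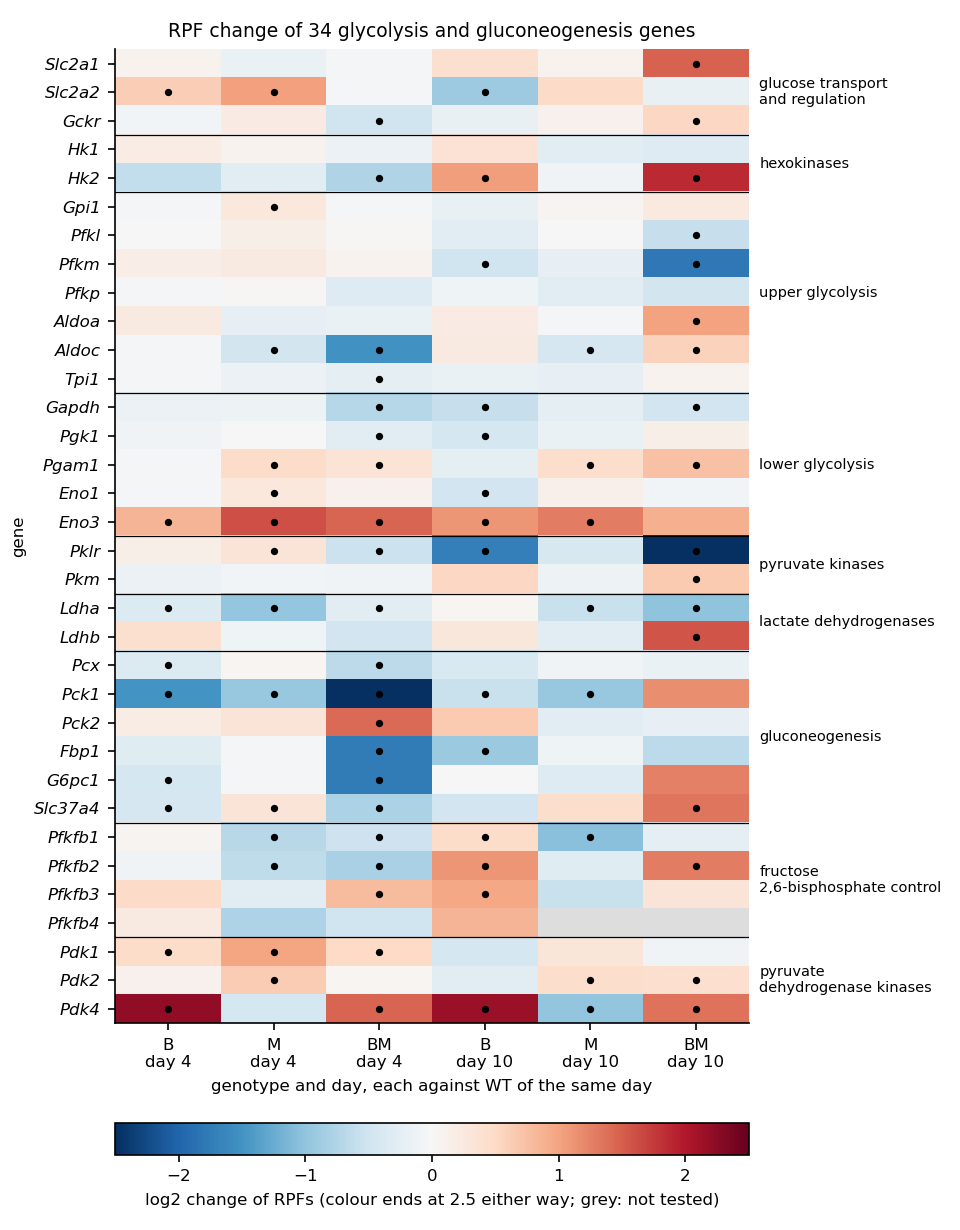
Log2 change in RPFs against WT of the same day for the 34 genes (rows, by role) in B, M and BM at days 4 and 10 (columns), with colour from lower to higher, a dot for an adjusted p under 0.1 and grey for a gene not tested. Pck1 and G6pc1 are lower in BM at day 4, at -4.16 and -1.75, and Pklr is lower in BM at day 10, at -2.77.

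Gluconeogenesis changed most in BM at day 4. Of its 6 genes, 5 fell and 1 rose, where 24.7% and 26.2% of all genes did, and together their share of all RPFs was 0.134% in BM against 0.501% in WT. Pck1 encodes cytosolic phosphoenolpyruvate carboxykinase, which commits oxaloacetate to glucose, and lies at chr2:172994744-173001066 (GRCm39, + strand). It had 2704, 4245 and 3239 RPF CPM in the WT mice, 1311, 902 and 1452 in B, 1918, 1775 and 1466 in M, and 88.7, 191 and 285 in BM. No BM mouse reached any mouse of another genotype, and the B and M mice lay below all WT mice. The log2 change against WT was -1.49 ± 0.191 (SE) in B (adjusted p = 0.000913), -0.95 ± 0.155 in M (adjusted p = 0.00174) and -4.16 ± 0.362 in BM (adjusted p = 6.17e-06).

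The 250 bases before the start of Pck1 and of G6pc1 are shown because, among the members, their BM effect against WT differed most between the days. They are RefSeq sequence of build GRCm38.p6, at chr2:173152823-173153072 and chr11:101367466-101367715, both on the + strand, and the capitals mark CTTTGAT, a form of the motif that TCF/LEF factors, the DNA-binding partners of β-catenin, recognise.
Pck1: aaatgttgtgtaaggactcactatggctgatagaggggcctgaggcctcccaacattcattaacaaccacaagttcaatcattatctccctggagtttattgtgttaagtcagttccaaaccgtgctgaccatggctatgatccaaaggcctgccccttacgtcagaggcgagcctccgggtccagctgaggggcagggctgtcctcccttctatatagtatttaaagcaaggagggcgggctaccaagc
G6pc1: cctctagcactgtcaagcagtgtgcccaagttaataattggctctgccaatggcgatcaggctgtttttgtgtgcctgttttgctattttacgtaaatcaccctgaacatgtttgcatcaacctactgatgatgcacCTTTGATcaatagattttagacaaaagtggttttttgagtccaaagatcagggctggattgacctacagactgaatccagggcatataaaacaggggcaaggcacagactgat
Windows of 250 bases before and 50 after the start were searched on both strands, and CTTTGAT was found in 3.51% of the 57 windows of the 34 genes (Pklr and G6pc1) and in 3.73% of all 32851 windows. The form CTTTGAA was found in 5.26% and 5.14% (Pck2, Pfkfb1 and Pdk1). A match of letters describes the sequence only.

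Glucose-6-phosphatase, the product of G6pc1, releases free glucose from hepatocytes, and its RPFs fell by 1.75 ± 0.183 on the log2 scale in BM at day 4 (adjusted p = 2.2e-05). The WT mice had 705, 1094 and 925 CPM and the BM mice 201, 302 and 299. In B it fell by 0.43 (adjusted p = 0.0801), a call lost in 5 of 6 fits without 1 mouse. Fbp1, fructose-1,6-bisphosphatase, fell by 1.75 ± 0.0863 in BM (adjusted p = 1.7e-07), from 891, 927 and 845 CPM in WT to 288, 243 and 258, with no overlap. Pcx, pyruvate carboxylase, had 582, 518 and 612 CPM in WT and 316, 377 and 378 in BM, a fall by 0.66 ± 0.103 (adjusted p = 0.000346). Slc37a4, which carries glucose 6-phosphate into the endoplasmic reticulum, had 143, 125 and 159 CPM in WT and 71.5, 91.7 and 80.7 in BM (-0.79 ± 0.116, adjusted p = 0.000238). In M it went the other way, to 170, 168 and 187 CPM (0.32 ± 0.0965, adjusted p = 0.0321), a call lost in 1 of 6 fits without 1 mouse. In B, Slc37a4 fell by 0.42 (adjusted p = 0.0448) and Pcx by 0.35 (adjusted p = 0.0479), each lost in 3 of 6 such fits.

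The exception was Pck2, the mitochondrial carboxykinase, which rose in BM at day 4 from 5.3, 4.36 and 4.51 CPM to 12.6, 13.3 and 11.7 (1.41 ± 0.145, adjusted p = 1.98e-05). The 3 BM mice lay above every WT mouse. Per length, Pck2 RNA was at 2.77 ± 0.305 TPM in WT liver against 726 ± 147 for Pck1.

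At day 10 the BM mice no longer moved together. For Pck1, WT mice had 1126, 1216 and 1237 CPM, whereas the BM mice had 651, 3539 and 3912. Mouse 1 thus lay below all WT mice and the other two above them, and the change of 1.17 did not pass (adjusted p = 0.134). Without BM mouse 1, which was chosen from these same data, it was 1.63 (adjusted p = 3.69e-06). G6pc1 showed the same division, with 271, 217 and 215 CPM in WT and 78.5, 576 and 1049 in BM, a change of 1.26 (adjusted p = 0.197), or 1.78 without mouse 1 (adjusted p = 4.71e-05). Fbp1 had 969, 900 and 931 CPM in WT and 328, 698 and 775 in BM (-0.65, adjusted p = 0.13), or -0.35 without mouse 1 (adjusted p = 0.0392). Slc37a4 rose with the mouse included, from 150, 89.6 and 140 CPM to 189, 405 and 368 (1.33 ± 0.322, adjusted p = 0.0155).

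Genes that fasting is known to raise, a list of 12 without members of the pathway described here, summed to 2380 RPF CPM in BM mouse 1 at day 10 against 5736 and 7500 in the other two and 2532 to 3482 in WT. Genes that feeding raises summed to 3814 against 1468 and 1339, and to 9152 to 11160 in WT. Such sums weigh abundant genes most, and the fasting-raised genes were called in both directions in BM at day 10, as counted below. Pdk4, a member that fasting raises, had 45.9 CPM in mouse 1 against 20.7 and 25.2 in the other BM mice. The part of feeding state in the gluconeogenic values was not tested.

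In B at day 10, Fbp1 fell from 969, 900 and 931 CPM to 499, 514 and 473 (-0.93 ± 0.107, adjusted p = 0.000785), with no overlap. Pck1 fell by 0.56 in B (adjusted p = 0.0872), a call lost in 4 of 6 fits without 1 mouse, and by 0.94 in M (adjusted p = 0.0202). In M at day 10, no other gluconeogenic gene was called.

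**Figure D2:**
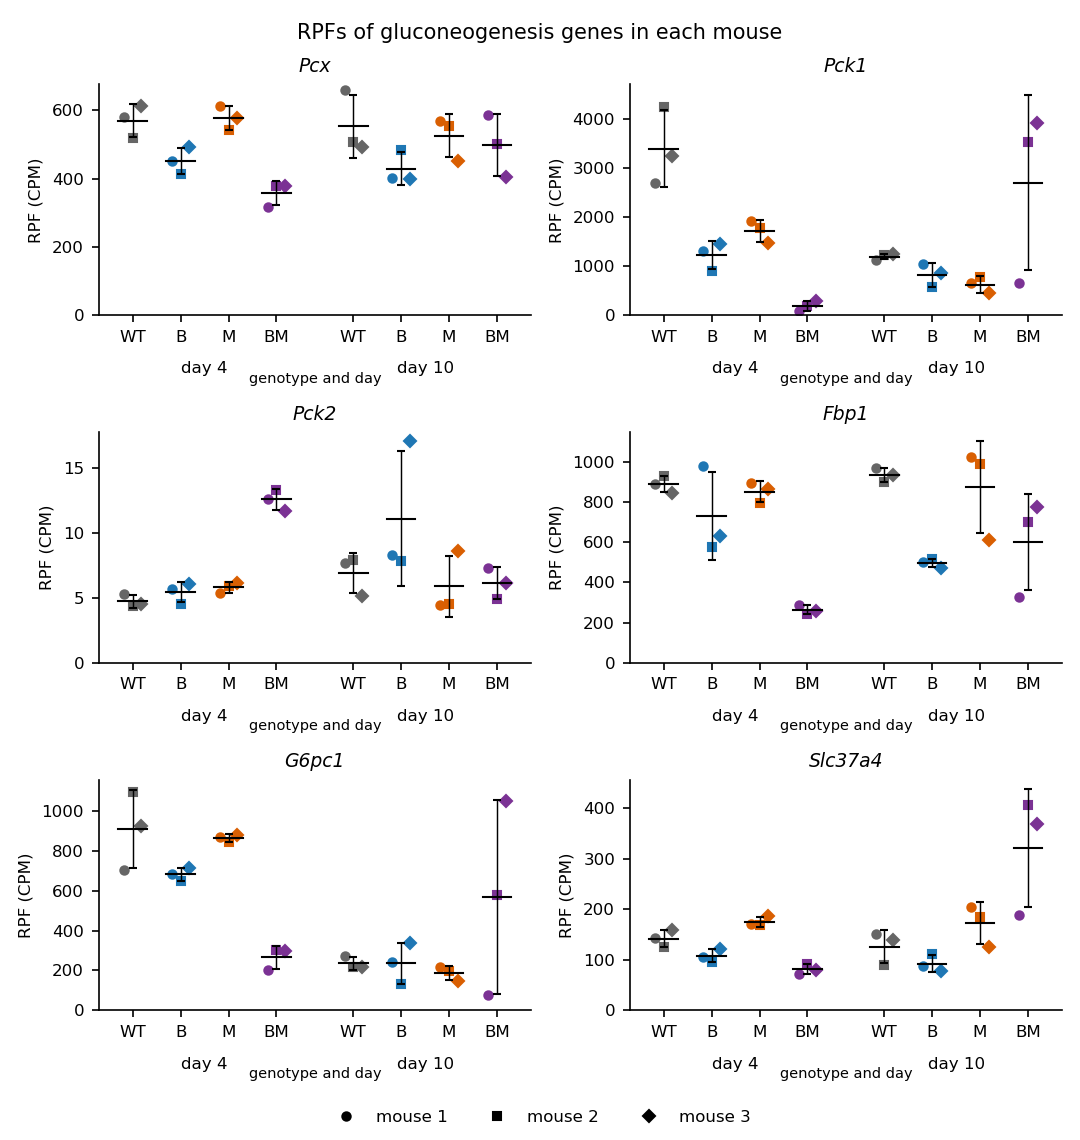
RPF level in CPM of the gluconeogenic genes in each mouse (circle, square and diamond for mice 1, 2 and 3), by genotype and day, with a bar for the mean and error bars for the SD of 3 mice. In BM at day 4, Pck1 lies at 88.7 to 285 CPM against 2704 to 4245 in WT, and at day 10 BM mouse 1 lies at 651 against 3539 and 3912 in the other two.

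The transporters and the glucokinase regulator moved by genotype. Slc2a2 (GLUT2, the hepatocyte glucose transporter) had 221, 295 and 269 RPF CPM in WT at day 4, 408, 391 and 416 in B, and 541, 486 and 543 in M. Every B and M mouse was above every WT mouse, and the log2 changes were 0.62 ± 0.105 (adjusted p = 0.00476) and 1.03 ± 0.106 (adjusted p = 0.000162). BM mice, at 223, 282 and 256, overlapped WT. At day 10, B fell by 0.91 (adjusted p = 0.0862), with WT mice spread from 186 to 486 CPM, and the call was lost in 4 of 6 fits without 1 mouse.

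Slc2a1 (GLUT1, the transporter of most other cells) rose in BM at day 10 from 14.7, 11.8 and 15.4 CPM to 25.4, 41.1 and 51 (1.47 ± 0.271, adjusted p = 0.00556), with no overlap. Gckr, the inhibitor that holds glucokinase in the nucleus, fell by 0.49 ± 0.116 in BM at day 4 (adjusted p = 0.00549) and rose by 0.52 ± 0.15 at day 10 (adjusted p = 0.0292), a call lost in 4 of 6 fits without 1 mouse. The WT mice had 113, 121 and 131 CPM at day 4 and 121, 118 and 121 at day 10, and the BM mice 72.3, 98.4 and 86.8, then 159, 164 and 199.

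Of the hexokinases, which trap glucose as glucose 6-phosphate, Hk1 was called in no comparison with WT, with RPF levels of 4.77 to 9.79 CPM in all mice. Hk2, the form typical of muscle and tumours, at chr6:82699740-82751469 (GRCm39, - strand), had 3.29, 2.54 and 3.16 CPM in WT and 2.28, 1.31 and 1.73 in BM at day 4, and 2.19, 3.46 and 2.75 in WT and 5.93, 13.8 and 11.1 in BM at day 10. The fall at day 4 was -0.75 ± 0.254 (adjusted p = 0.0338), lost in 2 of 6 fits without 1 mouse, and the rise at day 10 was 1.86 ± 0.358 (adjusted p = 0.00657). B mice also rose at day 10, to 4.46, 6.18 and 6.89 CPM (1.05 ± 0.258, adjusted p = 0.0233). These levels rest on 12 to 178 counts per RPF library.

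The window before Hk2 is shown for ACGTG, the core of the hypoxia response element, marked in capitals as its reverse complement at 226 to 222 and 52 to 48 bases before the start (RefSeq, GRCm38.p6, chr6:82774455-82774704, - strand).
Hk2: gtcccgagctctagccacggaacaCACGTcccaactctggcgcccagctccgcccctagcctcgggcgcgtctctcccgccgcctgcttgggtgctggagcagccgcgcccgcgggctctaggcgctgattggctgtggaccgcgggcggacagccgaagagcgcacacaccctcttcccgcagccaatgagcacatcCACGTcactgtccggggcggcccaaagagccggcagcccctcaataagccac
ACGTG was found in 33.3% of the member windows, of 15 genes, and in 19.6% of all windows. CACGTG, the E-box that MYC and its partners recognise and which contains ACGTG, was found in 10.5% of member windows (Pfkm, Ldha, Pcx, Pfkfb2, Pfkfb3 and Pdk2) and in 7.15% of all.

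The upper steps of glycolysis, from glucose 6-phosphate to triose phosphates, had 0 of 7 genes higher and 2 lower in BM at day 4 (all genes: 26.2% and 24.7%), and 2 higher and 2 lower at day 10 (24.5% and 22.3%). Aldoc, an aldolase typical of brain, had 20.2, 17.7 and 24.1 CPM in WT and 5.74, 8.02 and 7.83 in BM at day 4 (-1.51 ± 0.166, adjusted p = 3.22e-05). At day 10 it was the reverse, with 19.1, 21.5 and 23 in WT and 29.1, 33 and 34 in BM (0.58 ± 0.155, adjusted p = 0.0224). Aldoa, the aldolase of muscle and of fetal liver, rose in BM at day 10 from 125, 110 and 96.2 CPM to 162, 250 and 256 (1.00 ± 0.217, adjusted p = 0.0104).

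Of the 3 phosphofructokinase genes, which set the pace of glycolysis, 2 were lower in BM at day 10. Pfkm, the muscle-type subunit, fell in BM at day 10 from 36.4, 25.7 and 30.2 CPM to 14.4, 7.05 and 5.36 (-1.79 ± 0.351, adjusted p = 0.00695). Pfkl, the liver-type subunit, had 51.8, 58.3 and 47.8 CPM in WT and 46.5, 30.9 and 29.8 in BM (-0.57 ± 0.201, adjusted p = 0.0566), a call lost in 4 of 6 fits without 1 mouse. Pfkp, the platelet-type subunit, was called in no comparison with WT. Gpi1, the isomerase before them, rose in M at day 4 by 0.27 in RPFs (adjusted p = 0.0631) and by 0.48 in RNA (adjusted p = 0.00448). In BM at day 10 its RPFs, at 337, 288 and 309 CPM against 284, 245 and 245, did not pass (0.25, adjusted p = 0.218), while its RNA rose by 0.84 (adjusted p = 0.00116). Tpi1, triose phosphate isomerase, fell in BM at day 4 by 0.23 (adjusted p = 0.0421). The RPF calls of Gpi1 in M and of Tpi1 were each lost in 4 of 6 fits without 1 mouse.

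In the lower steps, from triose phosphates to phosphoenolpyruvate, Pgam1 (phosphoglycerate mutase) rose in M and BM. Its WT mice had 314, 310 and 326 CPM at day 4 and its M mice 448, 393 and 436 (0.46 ± 0.0749, adjusted p = 0.00185). BM rose by 0.35 at day 4 (adjusted p = 0.00427) and by 0.73 at day 10 (adjusted p = 0.0382), and the latter call was lost in 4 of 6 fits without 1 mouse. Gapdh, which oxidises glyceraldehyde 3-phosphate and is often used as a reference gene, fell in BM at day 4 from 299, 298 and 323 CPM to 190, 172 and 191 (-0.72 ± 0.0789, adjusted p = 3.03e-05). It also fell in B at day 10, by 0.58 (adjusted p = 0.0141), and in BM at day 10, by 0.47 (adjusted p = 0.0548), which was lost in 4 of 6 such fits. Pgk1, which makes the ATP of the next step, fell in BM at day 4 by 0.29 (adjusted p = 0.0112) and in B at day 10 by 0.44 (adjusted p = 0.0212). The BM falls of glycolytic genes at day 4 are on the TMM scale. Without TMM factors, the lower steps held 0.147% of all RPFs in BM at day 4 and 0.121% in WT. The upper steps held 0.0943% and 0.0786%, whereas the gluconeogenic share fell, as given above. RNA TPM was also higher in BM than WT for Gapdh (994 against 803), Pgk1 (399, 254), Tpi1 (308, 229) and Ldha (915, 639). Eno1, the common enolase, rose in M at day 4 by 0.27 (adjusted p = 0.0358) and fell in B at day 10 by 0.48 (adjusted p = 0.0354). Gapdh, Pgk1 and Eno1 have many near-identical pseudogene copies, so that their counts are less certain. Eno3, the muscle-type enolase, had 1.28, 0.969 and 1.8 CPM in WT at day 4 and 4.91, 3.83 and 3.54 in M (1.62 ± 0.272, adjusted p = 0.00211) and 4.2, 3.35 and 3.52 in BM (1.45 ± 0.256, adjusted p = 0.000881), on 8 to 77 counts per library.

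Pyruvate kinase makes pyruvate in the last step of glycolysis, and its 2 genes diverged in BM at day 10. Pklr, the L-type enzyme of hepatocytes, lies at chr3:89043449-89054619 (GRCm39, + strand). It had 572, 266 and 418 CPM in WT, 141, 140 and 110 in B, 389, 329 and 238 in M, and 63.6, 69.5 and 53 in BM. All B and BM mice were below all WT and M mice, and all BM mice below all B mice. The log2 change was -1.71 ± 0.245 in B (adjusted p = 0.00242) and -2.77 ± 0.291 in BM (adjusted p = 0.000712), and -0.54 ± 0.128 in BM at day 4 (adjusted p = 0.00552). The window before Pklr (RefSeq, GRCm38.p6, chr3:89136373-89136622, + strand) is shown with its CTTTGAT, 222 to 216 bases before the start, in capitals.
Pklr: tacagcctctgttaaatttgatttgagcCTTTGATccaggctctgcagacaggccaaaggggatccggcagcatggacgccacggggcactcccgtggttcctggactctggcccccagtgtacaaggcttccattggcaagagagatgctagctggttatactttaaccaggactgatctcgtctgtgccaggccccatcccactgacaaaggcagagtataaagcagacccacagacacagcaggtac

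Pkm, the pyruvate kinase of most other tissues, rose in BM at day 10 from 32.6, 41.3 and 29.6 CPM to 49.8, 59.5 and 54.9 (0.65 ± 0.172, adjusted p = 0.0212), with no overlap. Pkm lies at chr9:59563364-59586663 (GRCm39, + strand) and makes M1 and M2 enzymes from a pair of alternative exons of 167 bases. They are shown because the isoforms differ there: 103 bases are identical (61.7%) and capitals mark the 64 that differ. The M2 exon (chr9:59582851-59583017) belongs to the transcript on which RPFs were counted, and the M1 exon lies at chr9:59582312-59582478.
M2 exon: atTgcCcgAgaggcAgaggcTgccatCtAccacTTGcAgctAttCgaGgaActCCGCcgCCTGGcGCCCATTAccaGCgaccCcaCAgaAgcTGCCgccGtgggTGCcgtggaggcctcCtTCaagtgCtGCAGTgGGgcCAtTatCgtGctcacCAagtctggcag
M1 exon: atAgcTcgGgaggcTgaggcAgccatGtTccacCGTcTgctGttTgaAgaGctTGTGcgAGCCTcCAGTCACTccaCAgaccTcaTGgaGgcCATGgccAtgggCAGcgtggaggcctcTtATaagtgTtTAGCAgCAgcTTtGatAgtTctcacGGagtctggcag
The M2 transcript's share of Pkm RNA counts was 57.2, 57.5 and 55.9% in WT at day 4 and 57.4, 57.5 and 56.7% in BM at day 10, and lay between 54 and 59.9% in every mouse. These shares are estimates, and how reads common to both transcripts were assigned is not known. At least 99.92% of the nonzero expected counts of each RNA library were whole numbers.

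Lactate dehydrogenase interconverts pyruvate and lactate. Ldha, its main gene in liver, fell in M at day 4 from 1547, 1305 and 1152 CPM to 750, 639 and 630 (-0.96 ± 0.114, adjusted p = 0.000349) and at day 10 by 0.56 (adjusted p = 0.035). In BM at day 10 it fell from 819, 1033 and 809 CPM to 606, 384 and 346 (-1.01 ± 0.245, adjusted p = 0.0154). Ldhb, the heart-type subunit, rose in BM at day 10 from 3.94, 4.06 and 2.75 CPM to 10.9, 10.9 and 11 (1.58 ± 0.21, adjusted p = 0.00161). It rested on 23 to 188 counts per library.

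**Figure D3:**
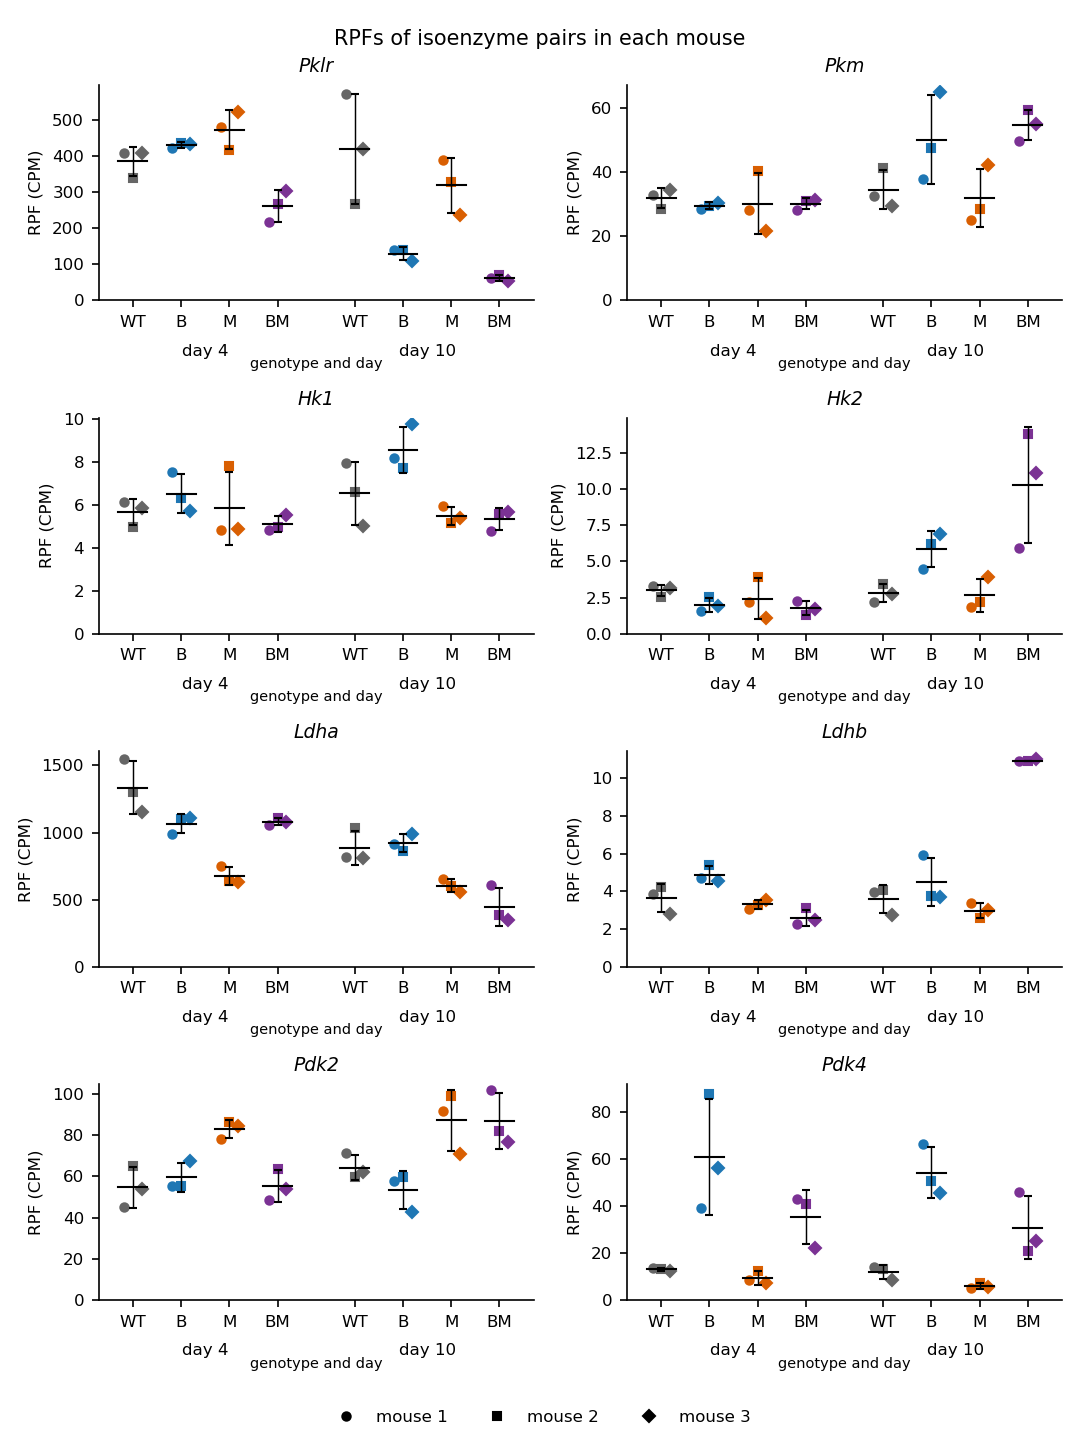
RPF level in CPM of isoenzyme pairs (Pklr and Pkm, Hk1 and Hk2, Ldha and Ldhb, Pdk2 and Pdk4) in each mouse (circle, square and diamond for mice 1, 2 and 3), by genotype and day, with a bar for the mean and error bars for the SD of 3 mice. At day 10 the BM mice lie at 53 to 69.5 CPM for Pklr and at 49.8 to 59.5 for Pkm, against 266 to 572 and 29.6 to 41.3 in WT.

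Fructose 2,6-bisphosphate activates phosphofructokinase and inhibits fructose bisphosphatase, and the Pfkfb genes encode the enzymes that make and remove it. Pfkfb1, the liver form, fell in M at both days, at day 10 from 59.9, 73.2 and 51 CPM to 30.2, 31 and 28.1 (-1.05 ± 0.138, adjusted p = 0.00429). It also fell in BM at day 4, by 0.52 (adjusted p = 0.0113), and rose in B at day 10, by 0.45 (adjusted p = 0.0726), the last a call lost in 4 of 6 fits without 1 mouse. Pfkfb2, the heart form, fell in BM at day 4 from 15.5, 13.3 and 14.1 CPM to 10.1, 6.37 and 7.63 (-0.82 ± 0.164, adjusted p = 0.00191). At day 10 it rose from 11.7, 11.4 and 9.7 CPM to 28.4, 25.3 and 18.1 in B (1.11 ± 0.174, adjusted p = 0.00356) and to 17.6, 30.8 and 31.6 in BM (1.27 ± 0.254, adjusted p = 0.00747). Pfkfb3 rose in B at day 10 (0.96, adjusted p = 0.0215) and in BM at day 4 (0.80, adjusted p = 0.00865). Pfkfb4, at 0 to 33 counts per RPF library, was called in no comparison with WT.

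Pyruvate dehydrogenase kinases hold pyruvate back from oxidation. Pdk4, the form raised by fasting, had 13.4, 13.2 and 12.3 CPM in WT at day 4, 39.1, 87.7 and 56.1 in B, and 43, 40.9 and 21.9 in BM. Every B and BM mouse lay above every WT mouse, with log2 changes of 2.21 ± 0.248 (adjusted p = 0.000462) and 1.45 ± 0.219 (adjusted p = 0.000298). At day 10, B had 66.3, 50.6 and 45.4 CPM and M had 4.98, 7.34 and 5.7, against 13.8, 13.1 and 8.5 in WT, a rise by 2.16 ± 0.198 (adjusted p = 0.000248) and a fall by 0.99 ± 0.223 (adjusted p = 0.0265). Pdk1 rose in M at day 4 from 21, 25.2 and 23.6 CPM to 48.5, 43.3 and 44.1 (0.99 ± 0.0977, adjusted p = 0.000141). Pdk2, the main form in liver, rose in M by 0.64 at day 4 (adjusted p = 0.0037). The window before Pdk4 (RefSeq, GRCm38.p6, chr6:5496279-5496528, - strand) is shown because Pdk4 had the largest rise among the members in B at both days.
Pdk4: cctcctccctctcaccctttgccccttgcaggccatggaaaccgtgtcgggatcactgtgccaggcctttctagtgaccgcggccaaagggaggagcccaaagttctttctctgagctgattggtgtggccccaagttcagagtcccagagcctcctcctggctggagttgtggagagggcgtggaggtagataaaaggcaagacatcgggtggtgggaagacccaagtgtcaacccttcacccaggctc

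RNA calls were counted in the same way. In BM, 4 genes were higher and 16 lower of 32 in RNA at day 4 (all genes: 21.3% and 20.6%), and 10 higher and 5 lower of 32 at day 10 (22.9% and 22.8%). B had 3 higher and 3 lower of 32 at day 4 (4.41% and 3.73%) and 4 higher and 3 lower of 32 at day 10 (8.14% and 7.48%). M had 10 higher and 4 lower of 33 at day 4 (13.5% and 10.3%) and 4 higher and 3 lower of 33 at day 10 (8.53% and 7.12%). The RNA was called in the same direction for 6 of 9 RPF calls in B, 11 of 14 in M and 17 of 21 in BM at day 4 (66.7, 78.6 and 81.0%, against 48.9, 52.3 and 63.4% of the RPF calls of all genes). At day 10 it was for 6 of 14 in B, 6 of 8 in M and 13 of 17 in BM (42.9, 75.0 and 76.5%, against 46.2, 48.4 and 66.3%). No member was called in opposite directions, but some RPF calls had no RNA call beside them, such as Gapdh in BM at day 10. Pck1 RNA had 1438, 2117 and 1539 CPM in WT and 28.9, 78.8 and 115 in BM at day 4, a fall by 4.51. Pklr RNA had 293, 127 and 198 CPM in WT and 27.1, 23 and 19.4 in BM at day 10, a fall by 3.14. The 15 RNA calls of BM at day 10 became 9 without WT mouse 3 or without BM mouse 2.

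**Figure D4:**
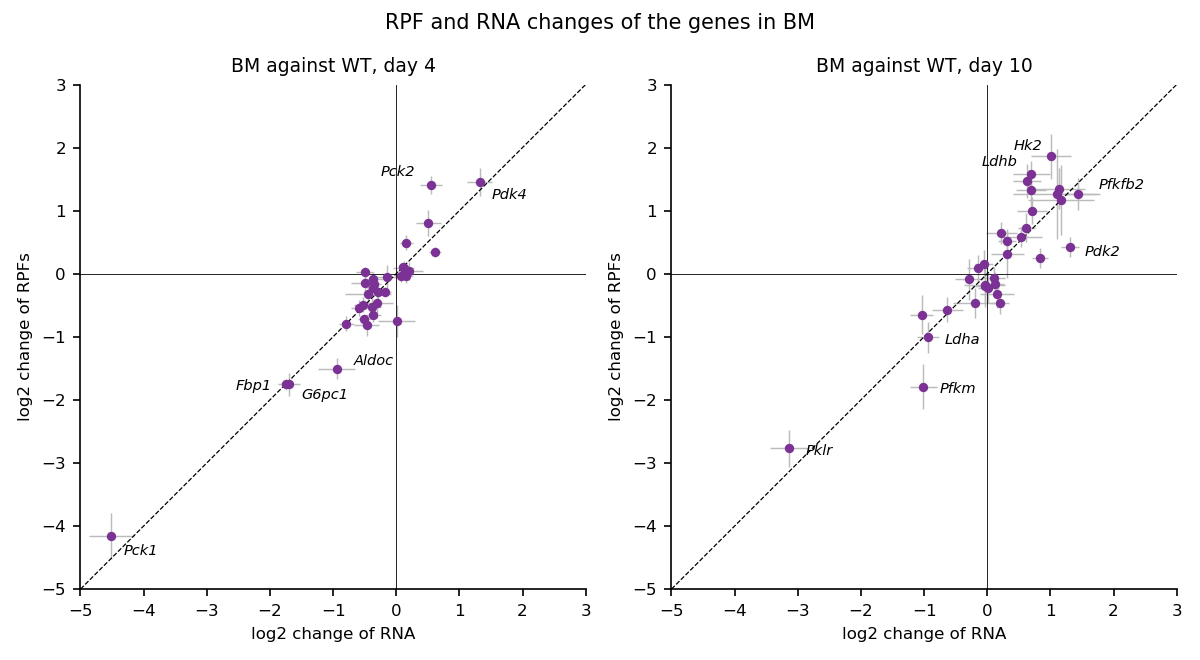
Log2 change in RPFs (y axis) against log2 change in RNA (x axis) in BM against WT at days 4 and 10 for the members, with bars for the SE and a dashed line where both changed equally. Pck1 lies near the line at day 4, at -4.16 in RPFs and -4.51 in RNA.

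TE changed for few members. By edgeR's interaction of genotype and library type, 2 rose in BM at day 4, where 2.23% of all genes changed in either direction. Log2 TE of Pfkl was 1.02, 0.92 and 1.04 in WT and 1.50, 1.54 and 1.52 in BM (0.53 ± 0.135, adjusted p = 0.0723). Log2 TE of Pck2 was -0.66, -1.09 and -1.01 in WT and -0.16, 0.14 and -0.14 in BM (0.85 ± 0.206, adjusted p = 0.0496). The mice did not overlap in either gene, but Pfkl was called in none and Pck2 in 2 of the 6 fits without 1 mouse, and DESeq2 called neither.

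In the other comparisons edgeR called 0 members in TE: B at day 4 (2 at an unadjusted p under 0.05; 0.0488% of all genes called), M at day 4 (3; 0.971%), B at day 10 (1; 0.0564%), M at day 10 (1; 0%) and BM at day 10 (5; 0.259%). DESeq2 called 2 in BM at day 10 (all genes: 0.892%) and 0 in the others. Without BM mouse 1, the count of BM at day 10 became 6 of 32, namely Slc2a1 and Fbp1 higher and Gpi1, Pfkm, Gapdh and Pdk2 lower, while that of all genes went from 0.259% to 21.5%. RPF and RNA libraries of a mouse deviated together, and with the mouse as a replicate block the TE calls became 1 in M at day 4 (Aldoc; all genes: 2.65%), 4 in BM at day 4 (with Pck1 and Pgam1 added; 6.16%), 2 in B at day 10 (Gapdh and Pdk1; 2.60%) and 5 in BM at day 10 (Gapdh, Gpi1, Pdk2, Slc2a1 and Slc37a4; 5.21%).

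The combined genotype was also set against each allele alone. At day 4, BM had 4 genes higher and 14 lower of 33 against M (all genes: 18.8% and 19.3%) and 3 higher and 17 lower of 34 against B (23.2% and 21.5%). Pck1 fell by 3.21 ± 0.352 against M (adjusted p = 0.000207) and by 2.66 ± 0.359 against B (adjusted p = 0.00035). Fbp1 fell by 1.72 against M (adjusted p = 3.11e-06) and by 1.44 against B (adjusted p = 0.000229), and G6pc1 by 1.71 (adjusted p = 5.67e-05) and 1.32 (adjusted p = 0.000135). All 3 genes were thus lower in BM than in either single-allele group at day 4.

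At day 10, BM had 11 higher and 4 lower of 33 against M (16.0% and 16.7%) and 12 higher and 6 lower of 34 against B (18.8% and 17.7%). These counts rested on single mice, and the shares of all genes in the fits below are not given. The 15 calls against M became 24 without BM mouse 1, 9 without BM mouse 2 and 8 without M mouse 1 or M mouse 2. The 18 calls against B became 29 without BM mouse 1, 7 without BM mouse 2, 10 without BM mouse 3, and 7, 8 and 9 without B mice 1, 2 and 3. Pck1 rose by 2.10 against M (adjusted p = 0.0499) and by 1.75 against B (adjusted p = 0.0698), both lost in 5 of 6 such fits. Without BM mouse 1 the changes were 2.62 (adjusted p = 0.000221) and 2.23 (adjusted p = 0.000155).

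Whether BM acted differently on the genes at days 4 and 10 was tested as an interaction, the effect at day 10 minus that at day 4. In RPFs it was positive for 12 and negative for 5 of 34 genes (all genes: 17.2% and 18.6%), with a median of 0.32, and in RNA positive for 14 and negative for 3 of 33 (13.4% and 16.6%). Of the 21 RPF calls at day 4 and 17 at day 10, 10 were shared (47.6% and 58.8%), as were 53.9% and 58.9% of the calls of all genes. Pgam1 and Pdk4 were higher and Gapdh, Pklr and Ldha lower at both days, whereas Gckr, Hk2, Aldoc, Slc37a4 and Pfkfb2 were lower at day 4 and higher at day 10. Without BM mouse 1 of day 10, the RPF interaction was called for 24 genes, with Tpi1, Pgk1, Pgam1, Eno3, Pfkfb1, Pfkfb3 and Pdk1 added. The share of all genes in that fit is not given. The effect on Pck1 differed by 5.33 ± 0.783 (adjusted p = 0.000637). The WT mice entered both sides, and they too changed between the days: of 33 genes, 0 were higher and 3 lower at day 10 (all genes: 2.17% and 2.28%), namely Pck1 (-1.51, adjusted p = 0.00112), G6pc1 (-1.95, adjusted p = 0.000232) and Ldha (-0.59, adjusted p = 0.0532, lost in 4 of 6 fits without 1 mouse). The 3 became 5 without WT mouse 2 of day 10, and 1 with all mice of both days in 1 fit.

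**Figure D5:**
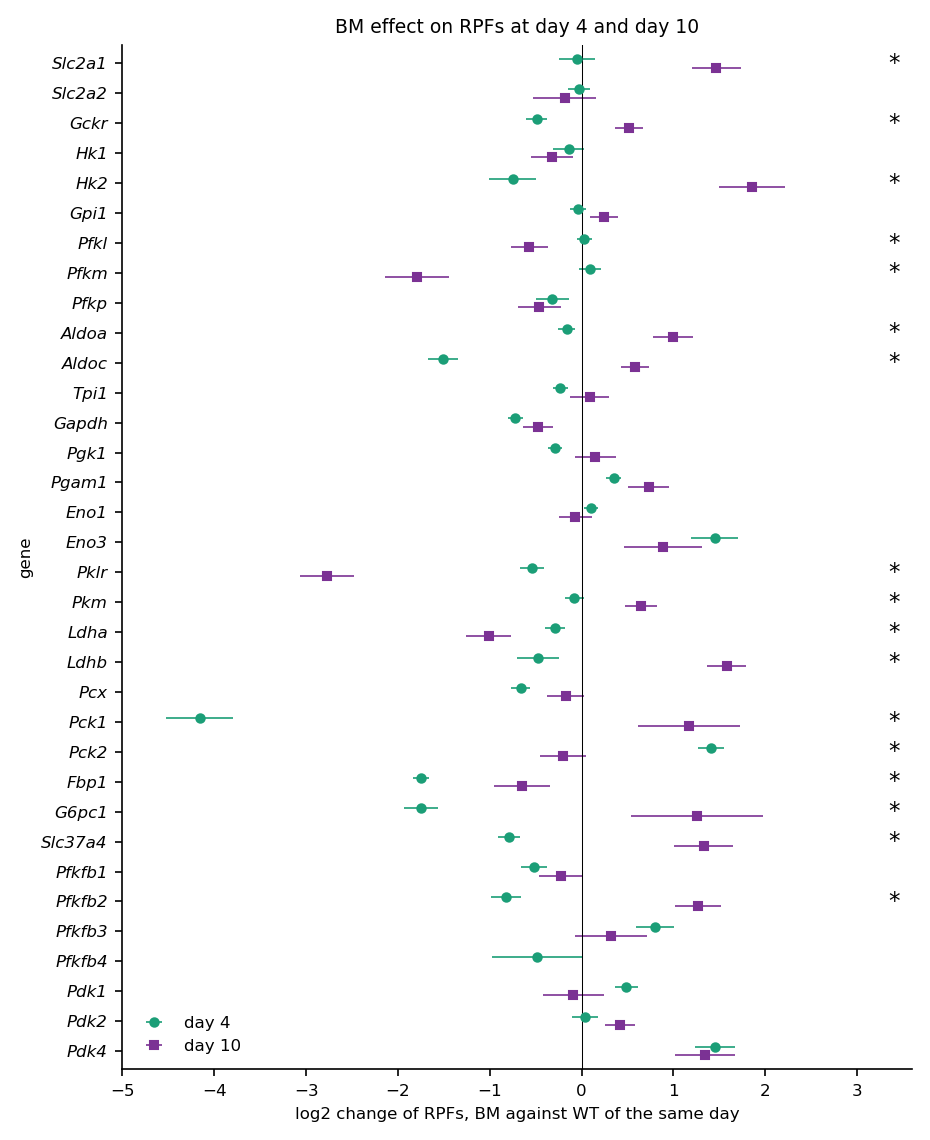
Log2 change in RPFs in BM against WT at day 4 and at day 10 for each gene, as points with bars for the SE, and an asterisk where the effect differed between the days at an adjusted p under 0.1. Pck1 runs from -4.16 to 1.17 and Pklr from -0.54 to -2.77.

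Other genes of glucose metabolism, in lists that hold none of the 34, were counted beside them in BM, where 26.2% of all genes were higher and 24.7% lower at day 4, and 24.5% and 22.3% at day 10. Of 16 further enzymes of the route tested, 4 were higher and 8 lower at day 4 and 2 higher and 6 lower at day 10, with medians of -0.42 and -0.23. Of the genes that handle pyruvate and lactate, 5 were higher and 1 lower of 16 at day 4, and 7 higher and 1 lower of 17 at day 10, with medians of 0.16 and 0.43. Of 17 genes of glycogen metabolism, 4 were higher and 3 lower at day 4 and 4 higher and 4 lower at day 10, near or under the shares of all genes. Of 22 transcriptional and hormonal regulators, 3 were higher and 11 lower at day 4 and 9 higher and 6 lower at day 10. Ppargc1a, a coactivator of gluconeogenic genes, rose by 3.67 at day 10, and Mlxipl, the carbohydrate-responsive factor that drives Pklr, fell by 1.66. Both were picked from the 22 regulators, and their part in the values of the members was not tested. Of 11 fasting-raised genes, 3 were higher and 4 lower at day 4 and 4 higher and 4 lower at day 10, and of 12 feeding-raised genes, 0 were higher and 7 then 9 lower.

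Markers of other liver cells moved beside these results. Of 8 Kupffer cell and macrophage markers, 7 were lower in BM at day 4 (summed RPF level 384 to 414 CPM against 671 to 773 in WT) and 4 higher at day 10 (871 to 952 against 523 to 736). Sinusoidal endothelial markers summed to 709 to 908 CPM in BM and 843 to 987 in WT at day 10, stellate cell markers to 881 to 898 and 861 to 1035, cholangiocyte markers to 35.9 to 64.7 and 44.5 to 84.1, blood and leukocyte markers to 61.7 to 66.6 and 161 to 223, and muscle markers to 84.7 to 133 and 110 to 131. Their part in the changes of Pkm, Hk2, Slc2a1 and Ldhb was not tested.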

How the data were processed

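RPF and cytoplasmic RNA libraries were prepared from each of 24 livers. The authors trimmed reads (cutadapt 1.18), removed rRNA and tRNA reads and collapsed duplicates by UMI, so counts are of molecules. RPFs, aligned by BBmap to 1 transcript a gene, its most abundant (GENCODE vM27), were deposited as counts over the coding sequence without its ends. For RNA, aligned with Bowtie2 2.3.5.1 to all protein-coding transcripts kept by the authors, the authors deposited TPM and expected counts estimated with RSEM 1.3.3. Here, RPF transcripts absent from a library (1689 to 3019) were taken as 0, RNA expected counts were rounded and summed per gene, and GENCODE vM39 gave symbols for 20614 of 20622 genes. Genes passed filterByExpr (minimum count 10, total 15), and edgeR 4.0.16 (R 4.3.3) with TMM scaling and quasi-likelihood F tests compared groups. TE was tested as an interaction over both libraries, and log2 TE used a pseudocount of 0.1 CPM. Adjusted p-values cover all genes tested, with calls under 0.1. The members and lists were chosen with earlier results of these data known. All 34 members are described, those named being the ones called or needed for their role. Scripts were tested on simulated data. Totals per library set the counting error, which is largest for genes of few counts. RPFs and RNA of the same mouse were paired, since their deviations from group means correlated at 0.31 to 0.66 in every mouse and each library was nearest to its own partner. The alternatives were DESeq2 1.42.0 scaling and tests, no filter, a replicate block, all mice of a day in 1 fit, and leaving out each mouse. Harvest time of day and feeding state are not given in the sources used here.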

Additional observations from a re-analysis of the deposited data

Results flagged for a closer look

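The effect of BM against WT differed between the days, by edgeR's quasi-likelihood test of the interaction at an adjusted p under 0.1, for 17 genes in RPFs and 17 in RNA. In RPFs, the log2 effect at day 10 exceeded that at day 4 for Aldoa (1.17), Aldoc (2.10), Fbp1 (1.10), G6pc1 (3.02), Gckr (1.02), Hk2 (2.61), Ldhb (2.05), Pck1 (5.33), Pfkfb2 (2.10), Pkm (0.73), Slc2a1 (1.52) and Slc37a4 (2.13), and was below it for Ldha (-0.71), Pck2 (-1.60), Pfkl (-0.60), Pfkm (-1.86) and Pklr (-2.22). In RNA, the log2 effect at day 10 exceeded that at day 4 for Aldoa (1.06), Aldoc (1.48), Fbp1 (0.71), G6pc1 (2.79), Gapdh (0.71), Gckr (0.84), Gpi1 (0.77), Ldhb (1.01), Pck1 (5.68), Pcx (0.49), Pdk2 (1.09), Pfkfb2 (1.90), Slc2a1 (0.77) and Slc37a4 (1.47), and was below it for Ldha (-0.65), Pfkm (-1.13) and Pklr (-2.56). The values are the effect at day 10 minus that at day 4. The calls of Pfkl and Ldha in RPFs were lost in 9 and 8 of the 12 fits without 1 mouse, and in RNA those of Pcx, Ldhb, Slc2a1 and Ldha in 9, 6, 3 and 3. Within the groups of 3 mice, single outlying values were not tested.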

How the results depend on the processing

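The counts of members called kept within 1.5 times their value under DESeq2 size factors in every comparison, and no member reversed a called direction under any alternative run. With all mice of the day or days in 1 fit, B at day 10 had 9 RPF calls in place of 14, M at day 10 had 4 in place of 8, and the WT days had 1 in place of 3. The 2 TE calls of BM at day 4 became 1 with no filter, 0 by DESeq2, 1 with all mice in 1 fit, 1 with RNA of the RPF transcript alone and 4 with both libraries of a mouse as a replicate block. The 0 TE calls became 1 in M at day 4, 2 in B at day 10 and 5 in BM at day 10 with this block, and 2 in BM at day 10 by DESeq2. Without 1 mouse, RPF calls against WT ran at day 4 from 4 to 8 in B, 10 to 17 in M and 18 to 22 in BM, and at day 10 from 9 to 17, 4 to 10 and 12 to 23. RNA calls ran at day 4 from 5 to 7, 10 to 16 and 15 to 19, and at day 10 from 6 to 8, 6 to 8 and 9 to 17. TE calls ran from 0 to 1 in BM at day 4, from 0 to 6 in BM at day 10 and stayed at 0 in the rest. BM against M ran from 18 to 19 and 8 to 24, BM against B from 15 to 19 and 7 to 29, the change of the BM effect from 15 to 24 in RPFs and 14 to 22 in RNA, and the WT days from 2 to 5. Replicate numbers did not pair mice across genotypes in a constant way (correlations of deviations from -0.24 to 0.27). At day 4, all 3 mice were nearest to their own number in RPFs of B with WT and in RNA of M with WT. In RPFs of M or BM with WT at day 4, 0 were. With the number as a replicate block, 606 single-gene results stayed on the same side of the threshold, 15 lost their call and 9 gained one. The causes were not tested. Hk2, Ldhb, Eno3, Pfkfb4, Pck2 and Pfkp had few RPF counts, which limits their precision.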
